A study of Mus musculus with 7 samples.

Results

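Follicular helper T (Tfh) cells are CD4 T cells that enter B cell follicles and help B cells there. The 10 genes described here were grouped as encoding molecules by which Tfh cells do so, which was not tested here. They were taken from the deposited gene table by symbol: Il21, Cd40lg, Icos, Pdcd1, Cxcr5, Sh2d1a, Btla, Cd200, Izumo1r and Angptl2. All 10 were found among the 54532 genes of the table, and all 10 were among the 15795 genes with enough counts to be tested. They were chosen for their roles, with earlier results of these data known. RNA was sequenced in bulk from 7 libraries labelled as Tfh cells sorted from mouse spleen. Of these, 3 came from WT mice and the other 4 from Mst1 knockout mice, whose titles read Mst1∆CD4. All the mice had been sensitised with ovalbumin (OVA) by intraperitoneal injection, and the sorted cells received no further treatment. The ∆CD4 notation is one used for a deletion in cells that express or once expressed Cd4, and other cells of such mice would keep the gene. The sources used here do not give strain, age or the deleting allele.

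A naive CD4 T cell that becomes a Tfh cell gains the chemokine receptor CXCR5, which leads it towards the chemokine CXCL13 made in B cell follicles. There it forms contacts with B cells that are held together through receptors of the SLAM family and their adaptor SAP. It signals to the B cell through CD40 ligand and interleukin 21, while ICOS sustains the T cell and PD-1 and BTLA restrain the exchange. Several of these molecules are not limited to T cells. B cells also carry CXCR5, BTLA and CD200, and cells outside the lymphoid lineages make CD200 and ANGPTL2.

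The libraries held between 16789158 and 18375275 counts. The defining Tfh markers Cd3e, Cd4, Cxcr5, Pdcd1, Bcl6 and Icos were all detected in every library, but B cell and myeloid transcripts stood at higher summed levels than those of T cells. Of these 6 markers, 5 fell in the knockout libraries by edgeR (adjusted p under 0.05, median log2 fold change -1.61), where 6.83% of all tested genes fell. Cxcr5, Pdcd1 and Icos are also among the 10 genes described here. Summed over 20 T cell markers, the level was 1035 to 1661 CPM (counts per library total, scaled with TMM) in the WT libraries and 269 to 536 CPM in the knockout libraries. Summed over 13 B cell markers it was 5331 to 7062 and 1807 to 4328 CPM, over 13 myeloid markers 17580 to 22340 and 13900 to 20710 CPM, and over 10 erythroid markers 57.3 to 110 and 543 to 1276 CPM. By the same test, 20 of 20 T cell markers, 4 of 13 B cell markers and 5 of 13 myeloid markers fell in the knockout libraries. Of the erythroid markers 10 of 10 rose, where 8.71% of all tested genes did. Called or not, 13 of 13 B cell markers had a negative log2 fold change (median -0.91). Of the myeloid markers 7 of 13 had one (median -0.32). In bulk RNA, fewer cells of a type and less RNA per cell cannot be told apart. MST1 is encoded by Stk4, which stood at 316 to 336 CPM in the WT libraries and 287 to 302 CPM in the knockout libraries (log2 fold change -0.16, SE 0.08, edgeR adjusted p = 0.225), so these counts do not show the loss of the gene that the labels name.

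Every one of the 10 genes had a lower level in all 4 knockout libraries than in any of the 3 WT libraries, as did 14.7% of all tested genes. By edgeR's quasi-likelihood test over all genes, 9 of the 10 fell and none rose, where 6.83% of all tested genes fell and 8.71% rose. The gene that missed the threshold was Cxcr5. The median log2 fold change of the 10 was -1.76, against -0.002 over all tested genes and -1.69 over the 20 T cell markers. The falls ran from 11.4-fold for Il21 to 1.86-fold for Btla. The count was 7 without WT replicate 2, when Pdcd1 (adjusted p = 0.0706) and Cd200 (adjusted p = 0.0541) no longer passed.

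**Figure D1:**
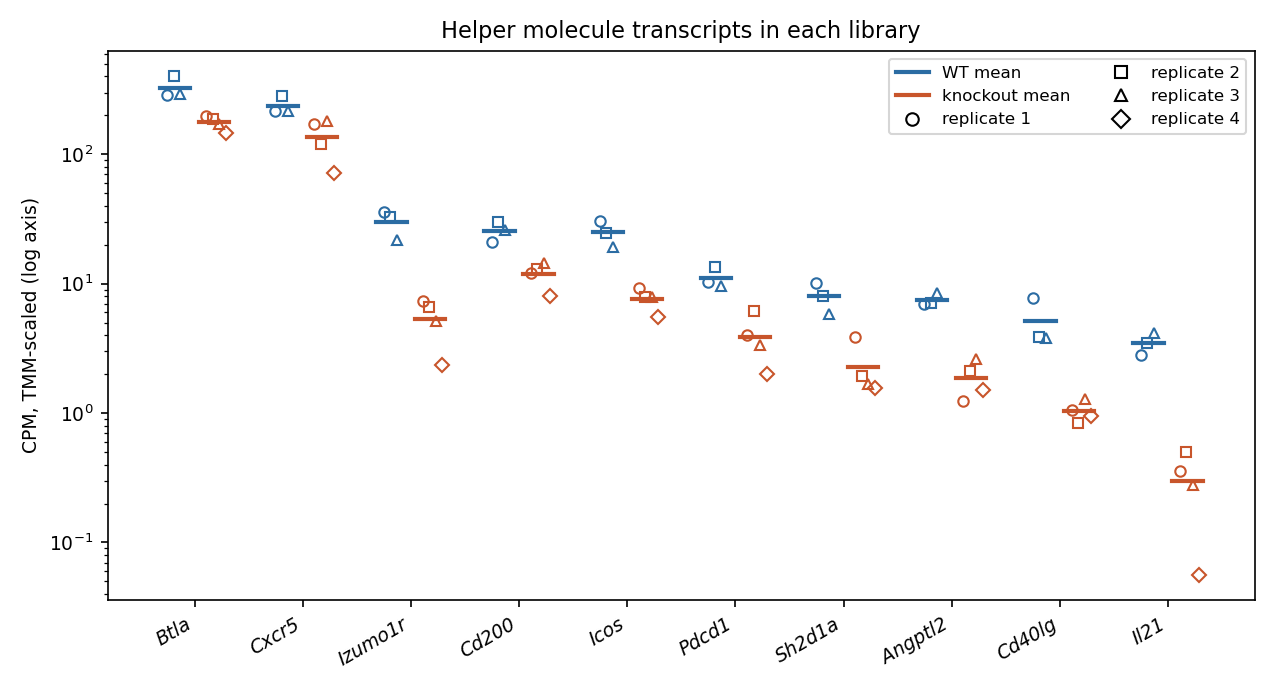
TMM-scaled CPM (log axis) of the 10 helper molecule genes, ordered by WT mean. Blue symbols are the 3 WT libraries and orange symbols the 4 knockout libraries, marker shapes give the replicate number and bars the group means; for each gene all knockout symbols lie below all WT symbols, and Il21 reaches 0.056 CPM in knockout replicate 4.

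The promoter region of Il21 is shown because Il21 fell the most, that of Pdcd1 for comparison as a member with a smaller fall, and a short stretch of that of Izumo1r because it holds the same motif as Il21. In T cells, transcription factors of the NFAT family carry signals of the T cell receptor to many cytokine genes, and their core site reads TGGAAA. Sequences are from RefSeq (GRCm38.p6), 5′ to 3′ on the strand of the gene. The first pair are the 250 bases before the annotated start, and capitals mark TGGAAA or its complement TTTCCA.

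Il21 (chr3:37232637-37232886, minus strand): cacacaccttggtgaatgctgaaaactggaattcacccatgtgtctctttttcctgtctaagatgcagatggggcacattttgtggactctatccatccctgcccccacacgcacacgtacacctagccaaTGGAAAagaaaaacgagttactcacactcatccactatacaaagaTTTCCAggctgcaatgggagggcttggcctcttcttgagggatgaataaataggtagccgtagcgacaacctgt

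Pdcd1 (chr1:94052554-94052803, minus strand): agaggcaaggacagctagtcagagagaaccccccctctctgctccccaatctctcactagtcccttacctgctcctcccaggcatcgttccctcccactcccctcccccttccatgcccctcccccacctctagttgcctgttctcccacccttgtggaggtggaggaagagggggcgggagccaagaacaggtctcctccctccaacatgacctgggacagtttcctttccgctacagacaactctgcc

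Izumo1r (chr9:14903947-14903976, minus strand): gaatctaagttaTTTCCAagttctcacagg

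The RefSeq table held such windows for 6 of the 10 genes, Il21, Izumo1r, Pdcd1, Angptl2, Btla and Cd200. TGGAAA was found on either strand in 2 of the 6, beginning 119 and 74 bases before the start of Il21 and 197 bases before that of Izumo1r, counted from the starts in RefSeq. The RefSeq start of Izumo1r lies inside the gene as the deposited table places it, so part of the stretch shown is within that gene model. It was found in 18.6% of all 32851 windows of this length, so its presence is common. The AP-1 motif TGANTCA, the TCF motif CTTTGA, the octamer ATGCAAAT and the TATA motif TATAAA were found in none of the 6, and in 6.75%, 13.8%, 1.60% and 12.4% of all windows. These matches describe letters and were not tested as binding sites.

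Both genes of secreted molecules fell. Il21 encodes interleukin 21, the cytokine by which Tfh cells drive germinal centre and plasma cell responses (ENSMUSG00000027718, chromosome 3, 37222759 to 37232636, minus strand, coordinates of the deposited table as for all genes here). It had 46, 60 and 73 counts in the WT libraries, or 2.81, 3.48 and 4.13 CPM. In the knockout libraries it had 6, 9, 5 and 1 counts, or 0.355, 0.501, 0.278 and 0.056 CPM. The gap between the groups was wide, and knockout replicate 4 held a single count. The mean went from 3.47 ± 0.66 CPM (SD, n = 3) to 0.30 ± 0.19 CPM (n = 4), a log2 fold change of -3.52 (SE 0.45, 95% interval -4.54 to -2.49, adjusted p = 0.00212). Only 10 of the 15795 tested genes had a more negative log2 fold change. The 4 knockout libraries together held 21 counts, with an exact 95% Poisson interval of 13 to 32.1 that covers counting error only. The annotated antisense gene Gm12534 at this locus had 0 counts in every library.

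Angptl2 encodes a secreted glycoprotein of the angiopoietin-like family (chromosome 2, 33216069 to 33247717, plus strand). Its level was 7.02, 7.08 and 8.48 CPM in the WT libraries and 1.24, 2.11, 2.62 and 1.51 CPM in the knockout libraries. The WT libraries lay close together, and knockout replicate 1 was the lowest. This was a 4.01-fold fall (SE of the log2 fold change 0.27, 95% interval -2.61 to -1.40, adjusted p = 0.00256). The whole gene lies within Ralgps1 on the opposite strand, and the sources used here do not give the strand setting of the counting. Ralgps1 itself fell by 0.60 on the log2 scale, with 16.6 ± 1.94 CPM in the WT and 11.0 ± 1.52 CPM in the knockout libraries (adjusted p = 0.0328), and its part in the Angptl2 counts was not tested.

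The ligands on the cell surface were both lower. Cd40lg, on chromosome X (57212143 to 57224042, plus strand), encodes the ligand through which T cells engage CD40 on B cells. It stood at 7.75, 3.89 and 3.79 CPM in the WT libraries and at 1.06, 0.835, 1.28 and 0.952 CPM in the knockout libraries. WT replicate 1 stood well above the other WT libraries, while the knockout libraries were near each other. Its log2 fold change was -2.31 (SE 0.33, 95% interval -3.04 to -1.57, adjusted p = 0.00315), and it was -1.89 without WT replicate 1.

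Cd200, on chromosome 16 (45382135 to 45409053, minus strand), encodes a ligand that restrains myeloid cells through the receptor CD200R. Its level was 20.9, 30.1 and 26.0 CPM in the WT libraries and 12.2, 13.02, 14.6 and 8.07 CPM in the knockout libraries. It changed by a log2 fold change of -1.10 (SE 0.21, 95% interval -1.57 to -0.63, adjusted p = 0.00998), a 2.15-fold fall. Knockout replicate 4 was the lowest, as it was for 8 of the 10 genes.

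Among the receptors, the costimulatory gene Icos fell and so did both inhibitory genes. Icos (chromosome 1, 60977927 to 61000320, plus strand) encodes the inducible costimulator, whose ligand on B cells keeps Tfh cells in the follicle. It stood at 30.8, 24.7 and 19.1 CPM in the WT libraries and at 9.28, 7.85, 7.96 and 5.55 CPM in the knockout libraries. All WT libraries stood well above the highest knockout library. The change was -1.70 on the log2 scale (SE 0.21, 95% interval -2.18 to -1.22), with the smallest adjusted p of the 10 genes (0.00187).

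Pdcd1 (chromosome 1, 94038305 to 94052553, minus strand) encodes PD-1, an inhibitory receptor present at high density on Tfh cells. Its level was 10.4, 13.5 and 9.67 CPM in the WT libraries and 4.02, 6.12, 3.34 and 2.02 CPM in the knockout libraries. Knockout replicate 2 came nearest to the WT range and knockout replicate 4 lay lowest. On the log2 scale the change was -1.53 (SE 0.32, 95% interval -2.26 to -0.79, adjusted p = 0.0164).

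Btla (chromosome 16, 45224315 to 45257670, plus strand) encodes the other inhibitory receptor, which binds HVEM, the product of Tnfrsf14, and is carried by B cells as well as T cells. It had the highest level of the 10 genes, with 288, 405 and 291 CPM in the WT libraries and 199, 187, 173 and 146 CPM in the knockout libraries. The knockout libraries spanned a narrower range than the gap from the highest of them to the lowest WT library. Its log2 fold change was -0.90 (SE 0.15, 95% interval -1.24 to -0.55, adjusted p = 0.00682).

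Cxcr5 (chromosome 9, 44511787 to 44561877, minus strand) encodes the homing receptor of follicular T cells and of mature B cells. Its level was 215, 282 and 218 CPM in the WT libraries and 172, 120, 180 and 71.8 CPM in the knockout libraries. The groups did not overlap, but knockout replicates 1 and 3 lay near the WT range and knockout replicate 4 far below it. The log2 fold change was -0.81 (SE 0.30, 95% interval -1.51 to -0.11) and missed the threshold (adjusted p = 0.109). It passed in 2 of 18 alternatives, DESeq2 (adjusted p = 0.0256) and limma-voom with quality weights (adjusted p = 0.0306), and the authors' deposited table gives it an adjusted p of 0.0302. Over the alternatives its adjusted p ran from 0.0256 to 0.300. Bcl9l on the opposite strand shares 110 bases with Cxcr5 and fell from 82.4 ± 4.73 to 45.4 ± 11.7 CPM.

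Sh2d1a (chromosome X, 42502453 to 42529330, plus strand) encodes SAP, the adaptor inside the cell that carries signals of SLAM family receptors and that T cells need to hold on to B cells. It stood at 10.1, 8.01 and 5.83 CPM in the WT libraries and at 3.90, 1.95, 1.67 and 1.57 CPM in the knockout libraries. Knockout replicate 1 stood above the other knockout libraries. Its change was -1.81 on the log2 scale (SE 0.35, 95% interval -2.60 to -1.03, adjusted p = 0.0104).

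Izumo1r (chromosome 9, 14885814 to 14903949, minus strand) encodes a folate receptor family protein, called FR4 on T cells and Juno on the mouse egg, where it binds the sperm protein IZUMO1. On CD4 T cells it marks regulatory, anergic and follicular helper subsets. It stood at 35.8, 32.9 and 21.7 CPM in the WT libraries and at 7.33, 6.57, 5.12 and 2.35 CPM in the knockout libraries. The groups lay far apart, with knockout replicate 4 the lowest. The log2 fold change was -2.49 (SE 0.35, 95% interval -3.30 to -1.69, adjusted p = 0.00393), the second most negative of the 10 genes.

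Levels can be compared between genes only per length, for which the deposited FPKM values were used. In the WT libraries Btla stood highest at 95.7 ± 19.6 FPKM (n = 3), followed by Cxcr5 at 70.8 ± 11.4 FPKM, and their ranges overlapped. Izumo1r followed at 12.9 ± 3.13 FPKM, then Cd200 at 7.66 ± 1.39, Icos at 7.18 ± 1.66, Pdcd1 at 5.73 ± 1.04 and Cd40lg at 4.07 ± 1.77 FPKM, and each of these last 4 overlapped its neighbours among them, while Izumo1r lay above them all. Sh2d1a at 1.44 ± 0.38 and Angptl2 at 1.19 ± 0.13 FPKM overlapped each other, and Il21 at 0.65 ± 0.13 FPKM lay below every library of all the others. For scale, Cd3e of the T cell receptor complex stood at 11.1 FPKM and the B cell receptor component Cd79a at 566 FPKM in these libraries, so the WT means of Btla, Cxcr5 and Izumo1r were above that of Cd3e and those of the other helper genes below it. The order was similar in the knockout libraries, except that Cd200 at 3.57 ± 0.84 FPKM (n = 4) stood above Izumo1r at 2.28 ± 0.94 FPKM, with overlapping ranges.

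Since T cell and B cell markers moved with the labels, each gene was also read against a pool of each. The summed counts of Cd3d, Cd3e, Cd3g and Cd247, subunits of the T cell receptor complex, were 2287 to 3586 in the WT libraries and 472 to 1186 in the knockout libraries, or 129 to 219 and 26.4 to 70.1 CPM. The summed counts of a pool of B cell genes, among them Cd79a, Cd79b and Ms4a1, were 2612 to 3642 CPM in the WT libraries and 844 to 2140 CPM in the knockout libraries. Knockout replicate 4, the lowest knockout library for 8 of the 10 helper genes, was also the lowest for both pools (26.4 and 844 CPM). The next lowest values were 38.9 and 1604 CPM, both in knockout replicate 2. There were 11.9 to 24.2 counts of the B cell pool for each count of the CD3 pool in the WT libraries and 30.5 to 42.6 in the knockout libraries (exact permutation p = 0.0286, two-sided, the smallest that 3 against 4 libraries can give).

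Per 1000 counts of the CD3 pool, 7 of the 10 helper genes (Cd40lg, Icos, Pdcd1, Sh2d1a, Cd200, Izumo1r and Angptl2) overlapped between the groups and were called in neither direction. Most tested genes did not overlap on this scale, since 87.2% were higher in every knockout library and 0.0886% lower in every one. Of all tested genes, 92.7% were called higher and 0.101% lower. Sh2d1a stood at 46.3, 45.8 and 45.0 in the WT libraries and at 55.6, 50.1, 34.7 and 59.3 in the knockout libraries. The knockout libraries thus lay on both sides of a very narrow WT range. Icos stood at 141, 141 and 148 in the WT libraries and at 132, 202, 165 and 210 in the knockout libraries. Cd40lg ranged from 22.2 to 35.4 and from 15.2 to 36.0, Pdcd1 from 47.4 to 77.0 and from 57.3 to 157, and Angptl2 from 32.1 to 65.6 and from 17.7 to 57.2, in the WT and knockout libraries respectively. Izumo1r stood at 164, 188 and 168 in the WT libraries and at 105, 169, 106 and 89.0 in the knockout libraries, so that 3 of the 4 knockout libraries lay below every WT library, and it was called lower when all 20 T cell markers served as the pool (adjusted p = 0.0356). For Cd40lg, Icos, Pdcd1, Sh2d1a, Izumo1r and Angptl2 the fitted log2 fold change on this scale lay between -0.56 (Izumo1r) and 0.44 (Pdcd1), and each had an interval that included 0. These intervals are wide, for Icos from -0.62 to 1.22, and do not show that the ratios were equal.

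Il21 had the most negative log2 fold change of the 10 genes per CD3 pool. Per 1000 counts of the CD3 pool it stood at 12.8, 19.9 and 31.9 in the WT libraries and at 5.06, 12.9, 5.78 and 2.12 in the knockout libraries. The groups met at 1 point, since knockout replicate 2 lay level with WT replicate 1. The edgeR fit on this scale gave a log2 fold change of -1.70 (SE 0.66, adjusted p = 0.0114), which did not pass without WT replicate 3 (-1.31, adjusted p = 0.101), and 0.101% of all tested genes were called lower on this scale. None of the 10 genes was lower in every knockout library than in every WT library on this scale, where 0.0886% of all tested genes were. The exact permutation test of the same ratio gave p = 0.0857, unadjusted, as 1 of 10 ratios computed. Per 1000 counts of Icos in the same library there were 91.1, 141 and 216 counts of Il21 in the WT libraries and 38.2, 63.8, 35 and 10.1 in the knockout libraries. Of 9 such ratios, to each other member, 8 were lower in every knockout library than in any WT library. Against Izumo1r the groups barely parted (lowest WT 78.4, highest knockout 76.3). Against Cd40lg they overlapped, at 362 to 1090 in the WT and 58.8 to 600 in the knockout libraries. All 9 ratios share the Il21 counts, and Il21 was the gene with the largest fall of the 10. Lower ratios therefore largely follow from that choice and are not separate results. The share over all genes was not computed.

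On the same scale Cxcr5 and Btla were higher in every knockout library than in any WT library. Cxcr5 stood at 981 to 1685 per 1000 counts of the CD3 pool in the WT libraries and 2457 to 3745 in the knockout libraries, and Btla at 1317 to 2316 and 2844 to 5509. Their log2 fold changes were 1.07 (adjusted p = 0.0227) and 1.09 (adjusted p = 0.0202). On this scale 92.7% of all tested genes were called higher and 87.2% were higher in every knockout library, since the CD3 pool itself was lower there, so these calls say nothing particular to the 2 genes. Neither passed without WT replicate 1, WT replicate 2 or knockout replicate 2, nor did Cxcr5 without knockout replicate 3. The scatter of a pool is shared by all genes and the model does not allow for that, so p-values and intervals on the ratio scales are too small.

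Read against the B cell pool, Cxcr5, Btla and Cd200 were nearly level between the groups. Cxcr5 stood at 82.2, 77.4 and 69.5 per 1000 counts of the B cell pool in the WT libraries and at 80.5, 74.5, 87.8 and 85.1 in the knockout libraries. Its coefficient of variation over all 7 libraries was 7.90% on this scale, against 38.3% in CPM and 41.1% per CD3 pool. Cd200 stood at 8.01, 8.26 and 8.30 in the WT libraries and at 5.69, 8.12, 7.10 and 9.56 in the knockout libraries, with a coefficient of variation of 15.2%. Btla ranged from 92.9 to 111 in the WT libraries and from 84.2 to 117 in knockout replicates 1 to 3, with 173 in knockout replicate 4. Their log2 fold changes on this scale were 0.10, -0.11 and 0.15, with intervals that ran from -0.98 at the lowest to 1.05 at the highest.

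Among the other genes, Icos, Pdcd1 and Sh2d1a overlapped between the groups per B cell pool and were not called, while Il21 and Izumo1r lay apart. Il21 stood at 0.957 to 1.32 per 1000 counts of the B cell pool in the WT libraries and at 0.066 to 0.312 in the knockout libraries. Izumo1r stood at 6.93 to 13.7 and at 2.49 to 4.09, and neither gene overlapped between groups. Angptl2 did not overlap either, at 1.94 to 2.71 and at 0.58 to 1.79, but was not called. Such a separation was seen in 0.918% of all tested genes, and the opposite one, seen in 60.6%, in none of the 10. On this scale 3 of the 10 genes were called lower, Il21, Izumo1r and Cd40lg, where 0.532% of all tested genes were, and none was called higher, where 48.7% were. The B cell pool was itself lower in the knockout libraries (exact permutation p = 0.0571), and the median log2 fold change on this scale was 1.08 over all tested genes. It was -0.82 over the 10 helper genes and a similar -0.78 over the 20 T cell markers. With the replicate number as a block, or without knockout replicate 4, 6 of the 10 were called lower, and without WT replicate 1, 1 was. Cd40lg (log2 fold change -1.37, adjusted p = 0.0334) overlapped between the groups, at 1.07 to 2.97 in the WT and 0.50 to 1.13 in the knockout libraries. It did not pass when any of 6 libraries, all but knockout replicate 4, was left out. The spread over the 7 libraries was smallest per CD3 pool for Il21, Cd40lg, Icos, Sh2d1a, Izumo1r and Angptl2, and smallest per B cell pool for Cxcr5, Btla, Cd200 and Pdcd1. These spreads are descriptions over 7 libraries that share their denominators.

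**Figure D2:**
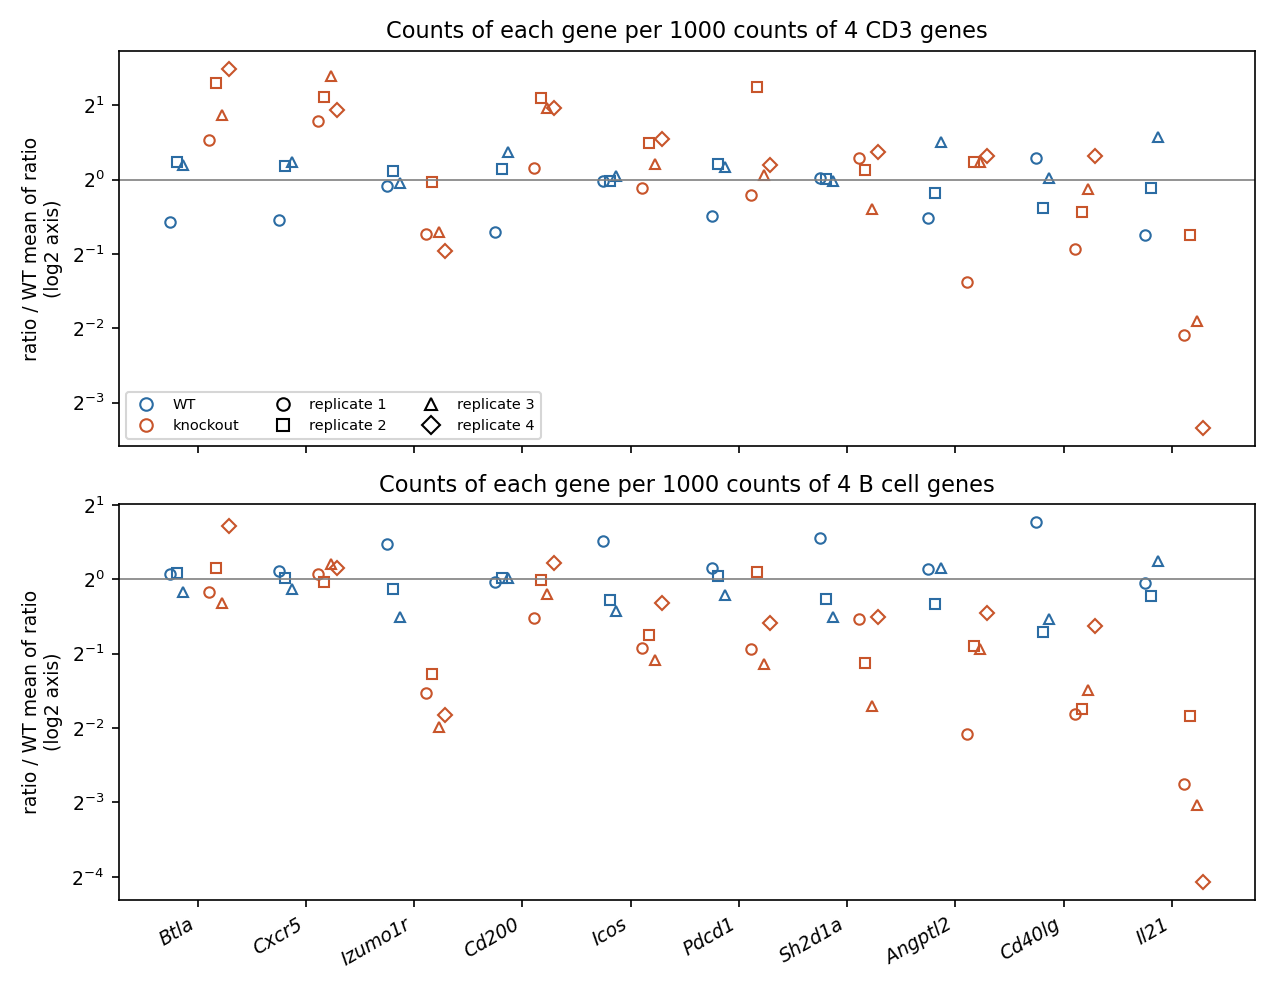
Counts of each helper gene per 1000 counts of the CD3 pool (top) and of the B cell pool (bottom), each divided by the WT mean of that ratio, on a log2 axis where the grey line is the WT mean. Blue symbols are WT and orange symbols knockout libraries, with shapes for the replicate; Sh2d1a and Icos lie tightly together in the WT libraries in the top panel, Cxcr5 lies near the line in all 7 libraries in the bottom panel, and Il21 lies lowest in both.

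**Figure D3:**
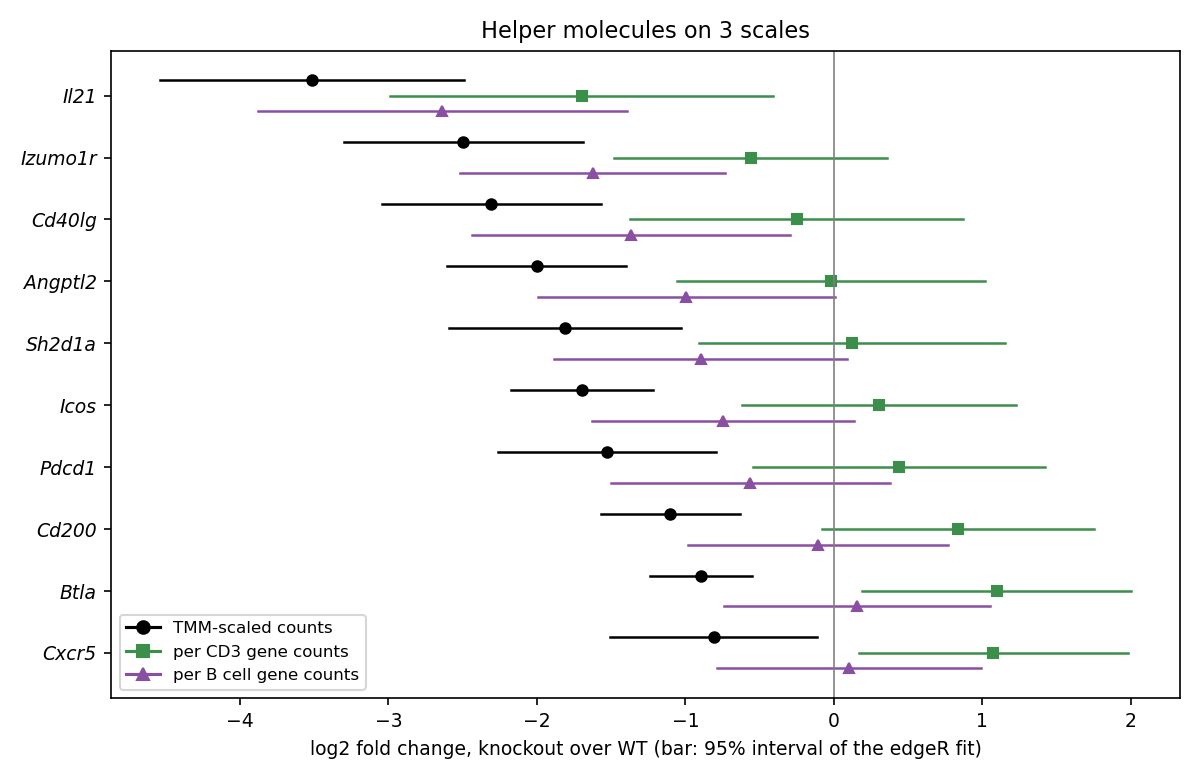
Log2 fold change, knockout over WT, of the 10 helper genes on 3 scales, with bars for the 95% interval of the edgeR fit. On TMM-scaled counts (black) all 10 lie below 0; per CD3 pool (green) Il21 alone has an interval below 0 and Btla and Cxcr5 have intervals above 0; per B cell pool (purple) Cxcr5, Btla and Cd200 lie near 0. Intervals on the ratio scales are too narrow.

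The molecules on the other side of these contacts did not move as 1 group. Of 17 ligands, receptors and binding partners of the 10, 16 were tested, 4 fell and 2 rose, with a median log2 fold change of -0.28, beside 6.83% and 8.71% of all tested genes, so that the share that rose was near the background. Without WT replicate 1 or WT replicate 2, 1 partner fell, without WT replicate 3 or knockout replicate 2, 2 fell, and without any single library but WT replicate 1 and knockout replicate 3, 1 rose. Slamf1, a SLAM family receptor that uses SAP, stood at 22.0 ± 3.53 CPM in the WT and 7.82 ± 1.80 CPM in the knockout libraries (change of -1.49 on the log2 scale, adjusted p = 0.00258), and Slamf6, another such receptor, fell by 0.86. Il21r, the receptor for interleukin 21, fell from 146 ± 16.6 to 73.1 ± 19.2 CPM (adjusted p = 0.016). Pdcd1lg2, which encodes the PD-1 ligand PD-L2, fell by 0.68 (adjusted p = 0.0489). The genes that rose were Tnfrsf14, which encodes the BTLA partner HVEM, at 46.6 ± 7.80 CPM in the WT and 91.1 ± 12.5 CPM in the knockout libraries (0.97 on the log2 scale, adjusted p = 0.00404), and Cd200r1, the receptor for CD200, at 8.80 ± 1.56 and 14.3 ± 2.09 CPM (0.70, adjusted p = 0.0303). In direction, Btla and Cd200 moved opposite to these 2 partners, while the 4 partners that fell moved in the same direction as their helper genes. Since the share of partners that rose was near the background, the opposite directions say nothing particular to these pairs. Per B cell pool, Btla and Cd200 themselves were nearly level (log2 fold changes 0.15 and -0.11). Cd40 stood at 59.5 ± 2.10 and 54.9 ± 13.9 CPM and Icosl at 190 ± 12.2 and 152 ± 48.2 CPM, neither of which passed. Cxcl13, the ligand of CXCR5 made by follicular stromal cells, was at 0.15 CPM in the WT and 0.14 CPM in the knockout libraries and was too low to test.

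Of 28 other surface and secreted genes of CD4 T cell help, positioning and restraint, 27 were tested, 15 fell and none rose (2 rose by limma-voom), beside 6.83% and 8.71% of all tested genes. Their median log2 fold change was -0.82, and 7 fell without WT replicate 2. Nt5e, which encodes the ectonucleotidase CD73, stood at 38.5 ± 6.83 CPM in the WT and 9.15 ± 2.02 CPM in the knockout libraries (-2.07 on the log2 scale, adjusted p = 0.000578). Ctla4, an inhibitory receptor of activated and regulatory T cells, fell by 1.95, the costimulatory receptor gene Cd28 by 1.52, and Tnfsf8, the ligand of CD30, by 1.94. The receptor genes Il2ra and Tigit fell by 1.30 and 1.06, the activation marker gene Cd69 by 0.82, and S1pr2, a receptor that confines both Tfh and germinal centre B cells to the follicle, by 0.89. The cytokine genes Il4, Il10 and Ifng had means between 0.47 and 1.63 CPM in the WT libraries, and their log2 fold changes of 0.94, -0.30 and 0.13 did not pass. T cell markers moved with these genes, with 20 of 20 lower and a median of -1.69, and their part in these changes was not tested.

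**Figure D4:**
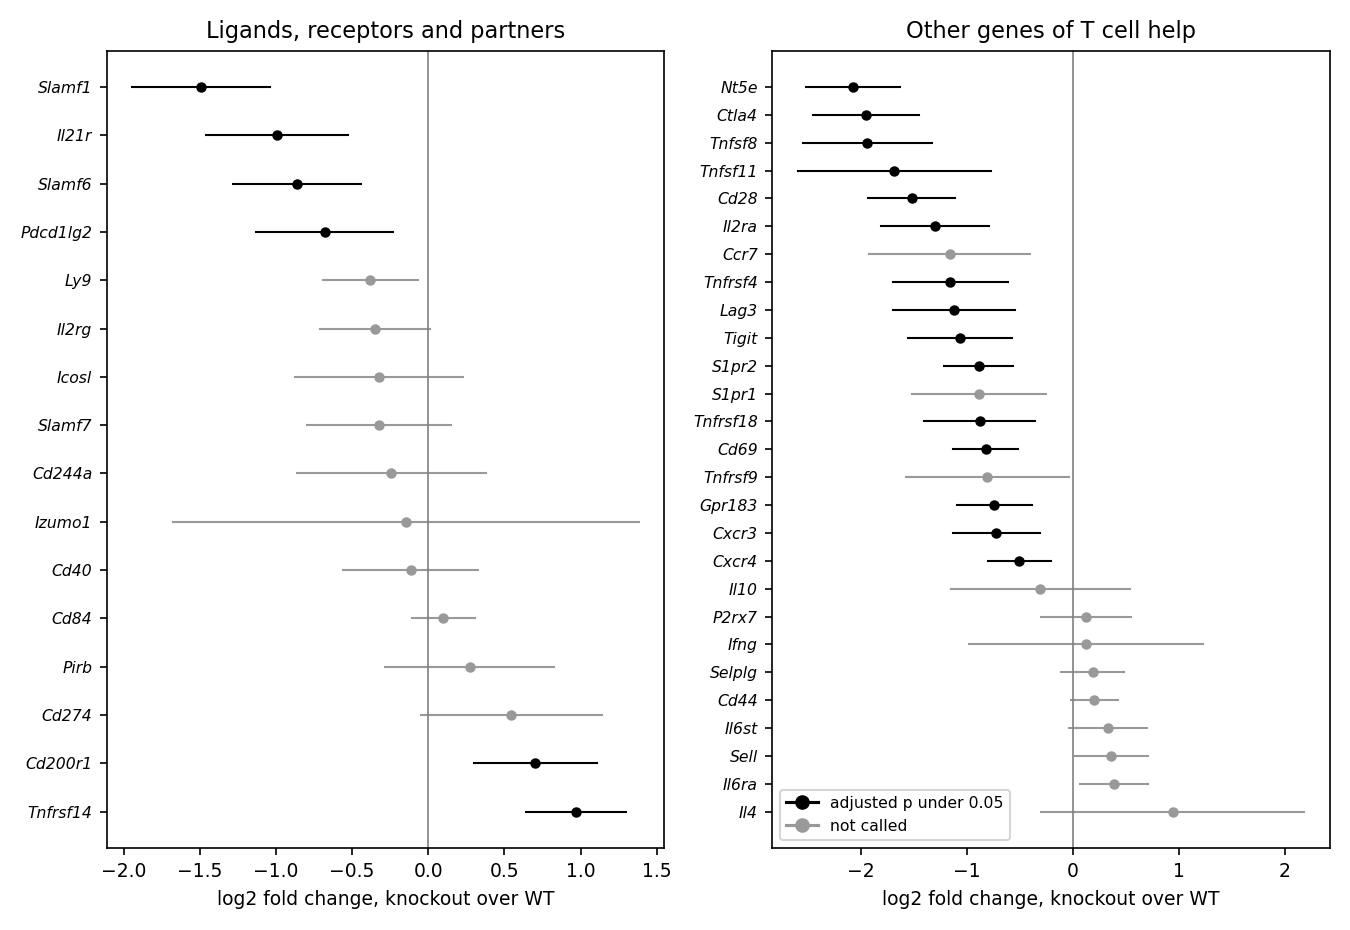
Log2 fold change, knockout over WT, of 16 tested ligands, receptors and partners of the helper molecules (left) and of 27 other genes of T cell help (right), with bars for the 95% interval of the edgeR fit. Genes with an adjusted p under 0.05 are black and the others grey; on the left Slamf1 lies lowest at -1.49 and Tnfrsf14 highest at 0.97, and on the right all 15 black points lie below 0.

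In the authors' deposited table all 10 genes had an adjusted p under 0.05, the largest being that of Cxcr5. Its log2 fold changes ran from -3.55 for Il21 to -0.81 for Cxcr5, for a side named VPA over a side named VPC. In sign and size all 10 lay close to the knockout over WT values found here, which were -3.52 for Il21 and -0.81 for Cxcr5. The labels do not say which groups the names VPA and VPC stand for, so no direction was taken from them.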

How the data were processed

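Bulk RNA sequencing was done on 7 libraries, grouped by the genotype and replicate number in their titles. The deposited values are, per the file headers, gene counts without normalization and FPKM. The authors' own comparison is deposited as log2 fold changes with a p-value before and after adjustment. Coordinates are on GRCm38 (mm10), according to the submitters' processing notes. The sources used here do not name the aligner, the counting tool, the strand setting or the authors' test. The 2 columns of means for the sides named VPA and VPC match no label and were not used.

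Counts were fitted with edgeR 4.0.16 in R 4.3.3 (TMM, filterByExpr, robust quasi-likelihood F-test, genotype as the only term, all 7 libraries), with Benjamini-Hochberg adjustment over 15795 tested genes and a threshold of 0.05. Of 54532 genes, 25641 had no count. CPM are scaled with TMM and given as mean ± SD. Ratio scales used the same genes and test, with the library size set to the counts of the CD3 or B cell pool. Not every gene of the pools and lists is reported here by name. Ratios were also compared by two-sided exact permutation over 35 splits. Intervals of counts cover counting error only. Named genes were the 10 members and, of the partners and the other help genes, up to 8 called genes with the smallest p. Other genes were named outside that rule. They were Cd40, Icosl, Cxcl13, Il4, Il10 and Ifng, which were not called or not tested, overlapping genes, and some marker and pool genes. The germinal centre and plasma cell genes Mef2b, Rgs13, Jchain, Xbp1, Prdm1 and Sdc1 were among these. The members and lists were chosen with earlier results of these data known. Alternatives were DESeq2 1.42.0, limma 3.58.1 (voom, and log2 FPKM with a pseudocount of 1 or 0.1), other scalings and filters, a replicate block, and leaving out each library. The edgeR step was tested on simulated data. No pair of libraries of a group agreed within sampling noise (chi-square per degree of freedom of at least 22.04). Motifs were searched in RefSeq promoter windows (GRCm38.p6).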

Additional observations from a re-analysis of the deposited data

Results flagged for a closer look

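Over 33 groups of 4 knockout libraries (the 10 genes on 3 scales, and the pools), 2 had a library that stood apart by Dixon's test, and chance gives about 1 in 20. Sh2d1a stood at 3.90 CPM in knockout replicate 1 and at 1.57 to 1.95 CPM in the other knockout libraries, a gap of 0.837 of the range. Angptl2 per 1000 counts of the CD3 pool stood at 17.7 in knockout replicate 1 and at 54.3 to 57.2 in the others, a gap of 0.927 of the range, with 21 counts of Angptl2 in that library.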

How the results depend on the processing

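All 10 helper genes were lower in the knockout libraries under each of 18 alternatives, with 7 to 10 called lower and none higher. With a pseudocount on FPKM the log2 fold change of Il21 was -0.65 with 1 and -2.29 with 0.1, since a pseudocount shrinks the changes of low genes. Over all tested genes, 1859 were lower by limma-voom. Leaving out single libraries gave 411 to 1138 lower and 639 to 1415 higher genes over the table, 1 to 4 lower and 1 to 3 higher partner genes, and 7 to 17 lower and 0 to 1 higher other help genes, where limma-voom gave 2 higher. On the ratio scales, leaving out single libraries gave 0 to 1 lower and 0 to 3 higher helper genes per CD3 pool and 1 to 6 lower ones per B cell pool. With all 20 T cell markers as the pool, 2 were lower (Il21 and Izumo1r), and Sh2d1a turned to -0.12. Uncalled values near 0 also turned per CD3 pool for Angptl2 (0.32 without WT replicate 3, 0.27 without knockout replicate 1, range -0.22 to 0.32), and per B cell pool for Cd200 (0.010 without knockout replicate 1, range -0.23 to 0.010) and Btla (-0.10 with the replicate block, -0.096 without knockout replicate 4, range -0.096 to 0.28). The causes were not tested. The replicate number as a block left 9 helper genes lower and gave 6 lower per B cell pool, 3 higher per CD3 pool, and 956 lower and 1163 higher genes over the table. Same-numbered libraries of the groups correlated at -0.05, 0.0095 and 0.21 in their deviations, knockout replicate 4 has no partner, and not every library correlated best with its own number, so the numbers were not taken as pairs. Depth limits Il21 most, with 1 to 9 counts per knockout library.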

Other observations

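Some marker genes of germinal centre B cells were also lower. Of 11 markers of germinal centre B cells and plasma cells, 6 fell and none rose by edgeR, with a median log2 fold change of -0.68, while 6.83% of all tested genes fell. Mef2b, a transcription factor gene of germinal centre B cells, stood at 38.3 ± 4.92 CPM (SD, n = 3) in the WT and at 8.12 ± 1.87 CPM (n = 4) in the knockout libraries, a log2 fold change of -2.24 (edgeR adjusted p = 0.000411). Rgs13, a regulator of G protein signalling in those cells, fell by 2.64, the most of the 11. The plasma cell genes Jchain, Xbp1, Prdm1 and Sdc1 had log2 fold changes between -0.22 and 0.10 that did not pass. B cell markers moved with these genes, with a median of -0.91 over 13 of them, and their part was not tested. Per B cell pool the median log2 fold change of the 11 markers was 0.44, against 0.01 over the 13 B cell markers and 1.08 over all tested genes.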
